A study of Mus musculus with 9 samples.

Results

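Effector cytokine and chemokine transcripts of invariant natural killer T (iNKT) cells were followed through 3 tissues: Ifng, Tnf, Il4, Ccl3, Ccl4, Ccl5 and Xcl1, chosen as a list of products that these cells make and matched by symbol to the Ensembl identifiers of the expression table. All 7 were found among its 14004 genes and all 7 passed the filter on low values, but Ccl3 had no read in 6 of 9 libraries. The libraries were 3 from thymus, 3 from liver and 3 from spleen, each of iNKT1 cells, the interferon-producing subset, from untreated C57BL/6 mice. Every mouse, in each tissue, had the genotype Tbx21CreTg;Rosa26-LSL-YFP+/+, in which a Cre recombinase driven by Tbx21, the gene of the type 1 lineage factor T-bet, switches on a yellow fluorescent reporter; there is no group without these alleles. The labels give no age and do not say whether the replicates came from separate mice, so p-values measure only the spread between these samples.

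iNKT cells recognise lipids held by CD1d and leave the thymus already able to release cytokines within hours of a stimulus. Many of their cytokine genes are transcribed before any stimulus, so that messenger RNA (mRNA) can be present without secreted protein, and the RNA measured here says nothing of secretion. Transcription of these genes is driven by NFAT, AP-1, NF-kB and lineage factors such as T-bet and GATA3, and AU-rich elements mark several of the mRNAs for decay. In sequencing of sorted cells in bulk, fewer cells that express a gene and less RNA per cell cannot be told apart.

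Values are normalised read counts as deposited, given for replicates 1, 2 and 3 in that order. Counted reads, recovered from the equal steps of the low values, came to 3877694 in liver replicate 3 and 18506598 to 39568081 in the other libraries. In thymus replicates 1 and 2, 8.99% and 7.25% of well-expressed genes lay at or under 1% of their mean in the other libraries, against 0.605% to 2.78% elsewhere. Y-linked reads numbered 6 to 21 in the libraries numbered 2 and at least 1458 in the others, so this difference is balanced over the tissues. T and iNKT1 identity genes summed to 93642 to 152625 in every library, with Cd3e, Zbtb16, Tbx21 and Klrb1c read in each. B cell genes summed to 841 in liver replicate 1 and 2157 in spleen replicate 1, and their sum was at most 0.217 in thymus. Myeloid genes summed to 1354 and 3915 in the same libraries, against 10.6 to 691 in the other 7. Hepatocyte genes summed to 1391 to 1801 in liver, mostly Alb, and to 110 to 868 in thymus, mostly Trf. Trf read 110, 598 and 205 in thymus and less in liver, at 43.5, 7.69 and 19.3. Alb read 0.0213, 268 and 84.0 in thymus.

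The windows just before the start sites are shown because they are where the activation-induced factors named above act on several of these genes. The RefSeq promoter windows used here (GRCm38.p6) held a start for 5 of the 7. The 250 bases before each start are printed 5′ to 3′ on the strand of the gene. Capitals mark matches, on either strand, to the NFAT core GGAAA (found in 55.6% of 32851 mouse promoter windows of this length), the T-box core GTGTGA (12.3%) or TATAAA (12.4%).
Ifng: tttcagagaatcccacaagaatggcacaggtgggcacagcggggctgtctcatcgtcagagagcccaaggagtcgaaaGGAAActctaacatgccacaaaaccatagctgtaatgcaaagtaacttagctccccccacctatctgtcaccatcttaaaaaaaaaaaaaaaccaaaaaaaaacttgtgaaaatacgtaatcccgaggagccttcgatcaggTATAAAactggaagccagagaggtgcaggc
Tnf: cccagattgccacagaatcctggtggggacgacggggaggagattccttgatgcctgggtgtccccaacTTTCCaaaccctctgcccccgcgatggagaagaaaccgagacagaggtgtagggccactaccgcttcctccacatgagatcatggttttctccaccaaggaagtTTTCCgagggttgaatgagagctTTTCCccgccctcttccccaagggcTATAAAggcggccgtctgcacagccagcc
Il4: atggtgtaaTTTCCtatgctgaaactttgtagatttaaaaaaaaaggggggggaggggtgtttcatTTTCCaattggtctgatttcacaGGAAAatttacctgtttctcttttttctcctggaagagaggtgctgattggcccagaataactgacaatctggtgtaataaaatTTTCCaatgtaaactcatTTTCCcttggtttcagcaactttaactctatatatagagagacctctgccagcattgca
Ccl3: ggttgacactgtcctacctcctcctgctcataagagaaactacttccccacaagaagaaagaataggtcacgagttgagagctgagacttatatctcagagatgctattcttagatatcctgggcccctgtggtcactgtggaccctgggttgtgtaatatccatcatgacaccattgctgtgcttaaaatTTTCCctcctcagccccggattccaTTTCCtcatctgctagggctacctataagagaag
Xcl1: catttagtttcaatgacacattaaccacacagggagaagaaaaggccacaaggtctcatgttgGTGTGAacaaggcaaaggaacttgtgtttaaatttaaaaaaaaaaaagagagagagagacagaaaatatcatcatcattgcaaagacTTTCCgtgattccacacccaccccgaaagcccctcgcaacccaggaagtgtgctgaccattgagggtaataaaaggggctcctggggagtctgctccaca
These windows lie at chr10:118440796-118441045 (plus strand) for Ifng, chr17:35202008-35202257 (minus) for Tnf, chr11:53618666-53618915 (minus) for Il4, chr11:83649379-83649628 (minus) for Ccl3 and chr1:164935523-164935772 (minus) for Xcl1. Each of the 5 held the NFAT core, from 1 match in Ifng and in Xcl1 to 5 in Il4, a motif that most windows of any gene hold. Ifng and Tnf had TATAAA at 30 and 29 bases before the start. The T-box core was matched in Xcl1 alone, at 187 bases before the start, and the AP-1 motif TGANTCA, present in 6.75% of windows, in none of the 5. A match is a string of letters, not a bound site. Ccl4 and Ccl5 were not matched in the promoter table.

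**Figure D1:**
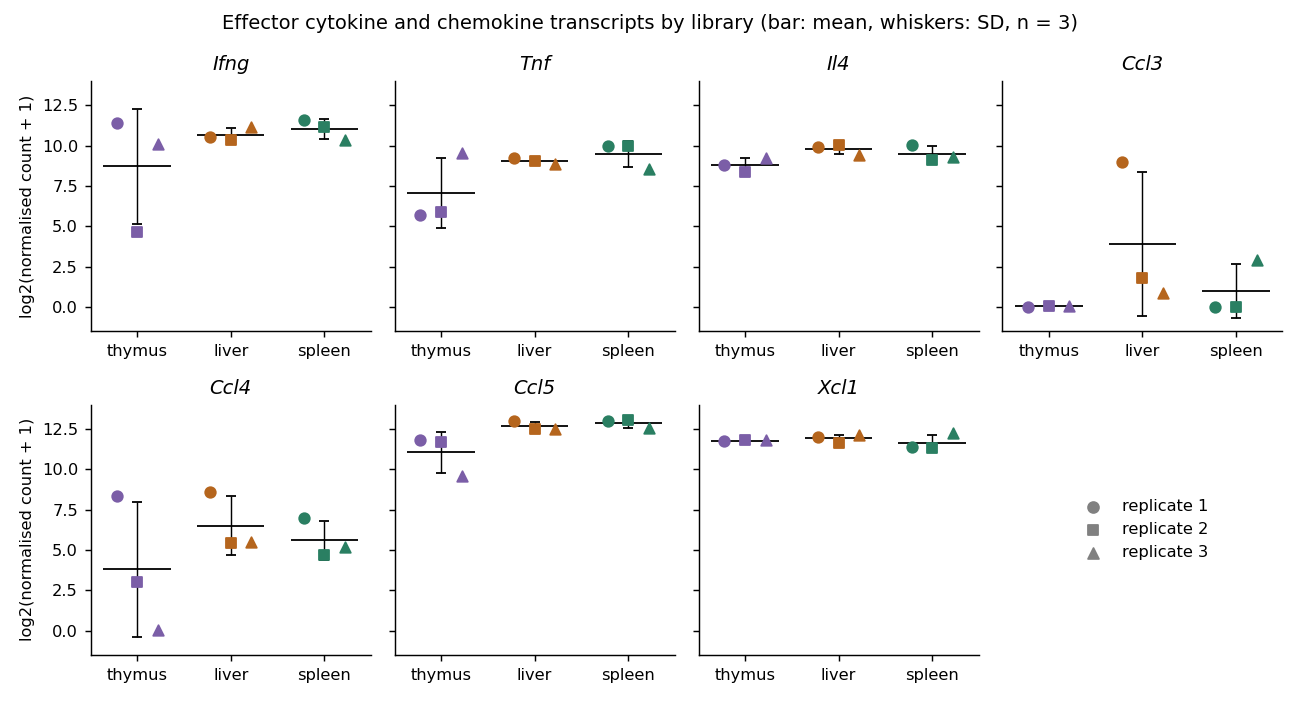
Level of each transcript in each library, as log2(normalised count + 1), by tissue; symbols are replicates, bars are means and whiskers are SD over 3 libraries. Ccl5 is the transcript whose 6 liver and spleen values all lie above its 3 thymus values. Single thymus libraries stand low for Ifng (replicate 2) and Ccl5 (replicate 3). Thymus replicates 2 and 3 stand low for Ccl4, and replicates 1 and 2 for Tnf.

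Ccl5 was higher in every liver and spleen library than in any thymus library, and was the only one of the 7 transcripts with that order. Its difference did not pass the test across all genes, and no other member did in any comparison. By limma-trend with Benjamini-Hochberg adjustment over 13309 genes, 0 of 7 members were called in liver vs thymus, where 0.323% of all genes were; 0 of 7 in spleen vs thymus, where 0.398% were; and 0 of 7 in liver vs spleen, where 0.015% were. The F-test of any tissue difference called 0 of 7, with 0.346% of all genes called. At an unadjusted p under 0.05 the members counted were 1, 2 and 0 in the 3 comparisons, against 11.6%, 11.7% and 3.03% of all genes. On recovered reads, edgeR called 0 members in each comparison, with 0.165%, 0.278% and 0.015% of all genes called, and DESeq2 called 0 with 3.42%, 3.85% and 0.165%. By unadjusted p under 0.05, edgeR counted 2, 1 and 0 members beside 11.3%, 11.3% and 3.03% of all genes. DESeq2 counted 1, 1 and 0 beside 14.4%, 14.4% and 4.14%. DESeq2 gave Tnf, Ccl3 and Ccl4 no adjusted p. It also gave these genes no unadjusted p in liver vs thymus, and Tnf none in spleen vs thymus, so they could not be counted there.

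Ifng encodes interferon gamma, the defining cytokine of iNKT1 cells (chromosome 10, 118441046 to 118445892, plus strand, GRCm38). Its values were 2696, 24.3 and 1082 in thymus, 1458, 1282 and 2271 in liver, and 3029, 2265 and 1328 in spleen. Thymus replicate 2 was the low library, and the other 8 libraries all lay between 1082 and 3029. The means were 1267 ± 1346, 1671 ± 528 and 2207 ± 852 (SD, n = 3), in the order thymus, liver, spleen, and the groups overlapped at each step. The log2 fold change was 1.95 in liver vs thymus (95% interval -0.55 to 4.44, limma-trend adjusted p = 0.532) and 2.32 in spleen vs thymus (-0.18 to 4.81, adjusted p = 0.460). Without thymus replicate 2 these came to -0.08 and 0.29, so the size of both rests on that library. On recovered reads they were 0.38 and 0.79 with edgeR and 0.37 and 0.75 with DESeq2. The gene next to Ifng in RefSeq, Dyrk2, a protein kinase gene, was also lowest there, at 17.4, against 259 to 1184 elsewhere. An annotated same-strand transcript, Gm49751, overlaps Ifng exons, and reads of the overlap cannot be told apart.

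Tnf encodes tumour necrosis factor, an inflammatory cytokine (chromosome 17, 35199381 to 35202007, minus strand). Its values were 51.6, 57.9 and 752 in thymus, 589, 531 and 467 in liver, and 986, 994 and 369 in spleen. Thymus replicates 1 and 2 were low, while replicate 3 exceeded every liver library. Means were 287 ± 403 in thymus, 529 ± 61.1 in liver and 783 ± 358 in spleen, and the tissues overlapped. The log2 fold change was 1.99 in liver vs thymus (interval -0.16 to 4.15, adjusted p = 0.460 by limma-trend) and 2.43 in spleen vs thymus (0.28 to 4.58, adjusted p = 0.357). The spleen difference had an unadjusted p of 0.0295, against 0.171 with edgeR. With edgeR the values were 0.89 and 1.46, and without thymus replicate 3 limma-trend gave 3.25 and 3.68 (adjusted p = 0.0824 and 0.0574). Its neighbours are lymphotoxin genes of the same family: Lta read 62.8, 97.2 and 172 in thymus, 233, 101 and 182 in liver and 190, 267 and 409 in spleen, and Ltb lay between 804 and 2574 with all tissues overlapping.

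Il4 encodes interleukin 4, the signature cytokine of the iNKT2 subset, which iNKT1 cells also transcribe (chromosome 11, 53602982 to 53618669, minus strand). Its values were 443, 335 and 604 in thymus, 959, 1043 and 697 in liver, and 1046, 543 and 614 in spleen. All 3 liver libraries lay above all 3 thymus libraries, as they did for 9.61% of all genes, and spleen overlapped both. Means were 461 ± 135 in thymus, 900 ± 180 in liver and 734 ± 272 in spleen. The fitted difference was 0.98 on the log2 scale in liver vs thymus (interval -0.32 to 2.29, limma-trend adjusted p = 0.545) and 0.65 in spleen vs thymus (adjusted p = 0.707). Il13, the type 2 cytokine gene beside it, did not follow this order: it had no read in thymus replicate 1, 438 and 318 in the other thymus libraries, 51.3 to 73.9 in liver and 22.3 to 210 in spleen. Kif3a, a kinesin gene on the other side, ranged from 20.2 to 796 with overlap between all tissues.

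Ccl5, also called RANTES, is a chemokine that attracts T cells and monocytes (chromosome 11, 83525778 to 83530518, minus strand). Its values were 3637, 3356 and 777 in thymus, 8074, 5903 and 5821 in liver, and 8190, 8682 and 5938 in spleen. Every liver and spleen library stood above the highest thymus library; 4.07% of all genes had this order. Means were 2590 ± 1576, 6599 ± 1278 and 7603 ± 1463, so that liver was 2.55-fold and spleen 2.94-fold above thymus. The log2 fold change was 1.62 in liver vs thymus (SE 0.47, interval 0.62 to 2.63, limma-trend adjusted p = 0.200) and 1.82 in spleen vs thymus (SE 0.47, interval 0.82 to 2.83, adjusted p = 0.140). The unadjusted p-values were 0.00361 and 0.00149. With libraries weighted by their own spread, limma called Ccl5 in both (1.97, adjusted p = 0.0441; 2.23, adjusted p = 0.0189), a call that no other setting made. Over all 13309 genes that setting called 50 and 52, against 43 and 53 without weights. Leaving out thymus replicate 3, without weights, brought the Ccl5 values to 0.90 and 1.10. Liver and spleen differed by -0.20 (interval -1.21 to 0.80), within the replicate spread. Heatr9, the RefSeq neighbour, read 362 in thymus replicate 1, 0 in replicate 2 and 16.3 in replicate 3, and 49.6 to 435 in liver and spleen.

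Xcl1, lymphotactin, is the chemokine that draws XCR1-bearing dendritic cells (chromosome 1, 164931644 to 164935527, minus strand). Its values were 3467, 3535 and 3547 in thymus, 4054, 3230 and 4420 in liver, and 2697, 2508 and 4803 in spleen. Thymus libraries differed least, with a coefficient of variation of 1.22%, against 15.6% in liver and 38.2% in spleen, and the tissues overlapped. The log2 fold change was 0.14 in liver vs thymus (interval -0.59 to 0.86, limma-trend adjusted p = 0.910), -0.14 in spleen vs thymus (-0.86 to 0.58, adjusted p = 0.911) and 0.28 in liver vs spleen (-0.45 to 1.002). The sign turned with the scaling, to -0.15 with TMM factors in liver vs thymus and to 0.03 with equal library totals in spleen vs thymus. An annotated transcript on the opposite strand, Gm20743, overlaps Xcl1 exons; the strand setting of the counting is not given in the sources used here.

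Ccl3 and Ccl4, macrophage inflammatory protein 1 alpha and beta, are neighbouring chemokine genes whose products attract leukocytes (chromosome 11, 83647844 to 83649355, minus strand, and 83662584 to 83664683, plus strand). Ccl3 had 588, 3 and 0 reads in liver and 0, 0 and 11 in spleen, with no read in any thymus library. Only liver replicate 1, at 511 normalised counts, stood high. The liver mean of 172 ± 294 was at least 48.6-fold higher than the 3.53 normalised counts that 3 reads per thymus library would give, and this rests on liver replicate 1: without it the mean was 1.68, under that floor. The log2 fold change was 3.85 in liver vs thymus (limma-trend adjusted p = 0.458). The spleen mean of 2.17 lay under that thymus floor, and no fold of spleen over thymus is given.

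Ccl4 read 322, 6.97 and 0 in thymus, 387, 42.9 and 43.2 in liver, and 125, 24.7 and 34.7 in spleen, and its tissues overlapped. Replicate 1 was the highest library of each tissue. Means were 110 ± 184, 158 ± 198 and 61.6 ± 55.4, each with an SD near or above the mean. The fitted log2 fold change was 2.71 in liver vs thymus (interval -1.72 to 7.14, adjusted p = 0.638 by limma-trend) and 1.81 in spleen vs thymus (-2.62 to 6.24, adjusted p = 0.769). The spleen mean lay under the thymus mean, and the sign of that fold change turned on recovered reads (-0.85 with edgeR, -0.89 with DESeq2) and without thymus replicate 3 (-0.06), the library with no Ccl4 read. Liver replicate 1, highest for both genes, also held Ncr1 (616, against at most 131 elsewhere), Eomes (395, against at most 23.9) and Cd8a (1116). Ncr1 and Eomes are 2 of 5 listed natural killer cell genes; the other 3, Klra8, Klra4 and Klre1, were lower there than in any thymus library, and the sum of the list was 2882 against 4119 to 4721 in thymus, 1443 and 1879 in the other liver libraries and 495 to 839 in spleen. Its myeloid sum of 1354 was mostly Cd68 (1171). Itgam read 109, Mpeg1 55.7 and Lyz2 18.2 in that library, while Csf1r, Adgre1 and C1qb were at 0. Myeloid sums were highest in replicate 1 of each tissue too, at 315, 1354 and 3915, while Ccl4 was lowest of these 3 in spleen. The part of other cells in either gene was not tested.

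**Figure D2:**
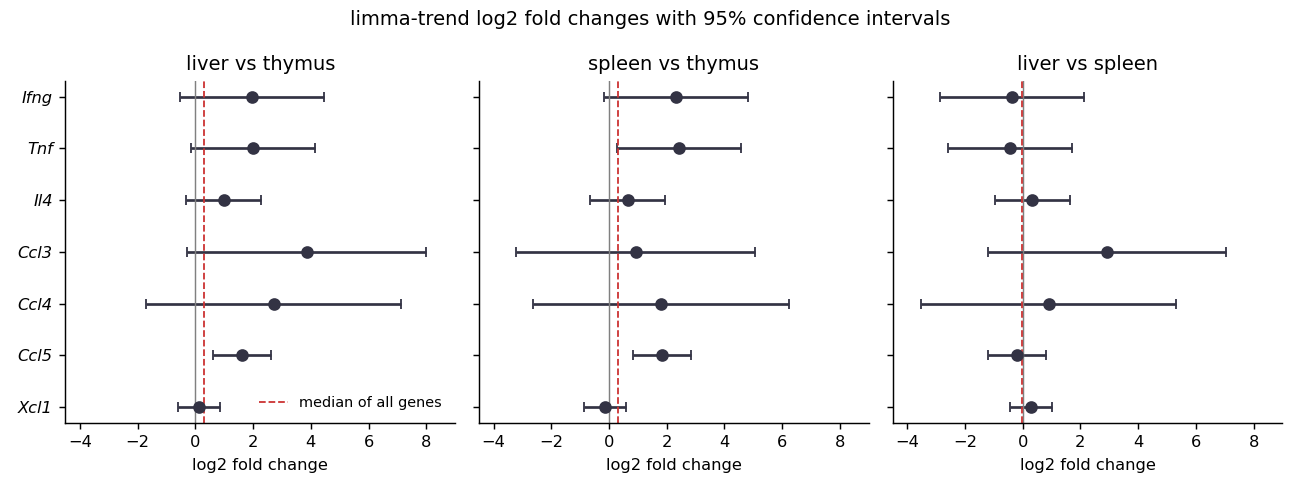
Log2 fold change of each transcript in the 3 comparisons (points) with 95% confidence intervals (bars) from limma-trend on log2(normalised count + 1); the dashed line is the median of all 13309 genes. Both Ccl5 intervals against thymus lie above 0, from 0.62 and from 0.82, as does that of Tnf in spleen vs thymus, from 0.28; Xcl1 is centred near 0, and the intervals of Ccl3 and Ccl4 are the widest.

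As a list, the members had a median log2 fold change of 1.95 in liver vs thymus, 1.81 in spleen vs thymus and 0.28 in liver vs spleen, beside medians of 0.29, 0.33 and -0.02 over all genes. With edgeR on recovered reads the members' medians were 0.89, 0.79 and 0.21, beside -0.02, 0.03 and -0.05 over all genes. Log2 fold changes lay above 0 for 7, 6 and 4 of 7 members, against 59.9%, 61.2% and 48.9% of all genes. The comparisons with thymus share its 3 libraries. Values did not overlap for 3 members in liver vs thymus (Il4, Ccl3 and Ccl5, each higher in liver), beside 15.3% of all genes, 9.61% being higher in liver. In spleen vs thymus this held for 1 member (Ccl5, higher in spleen), beside 15.3% of all genes, 9.29% being higher in spleen. In liver vs spleen it held for 0 members, beside 12.7% of all genes, 5.97% being higher in liver. For Ccl3 that separation includes liver replicate 3, whose deposited 0.811 stands for 0 reads. Scaling moved the all-gene medians against thymus to 0.43 and 0.48 with equal library totals and to 0.04 in both with TMM factors. Against the deposited medians, Ccl5 stood 1.33 and 1.499 higher and Xcl1 0.16 and 0.47 lower (-0.16 and -0.47).

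**Figure D3:**
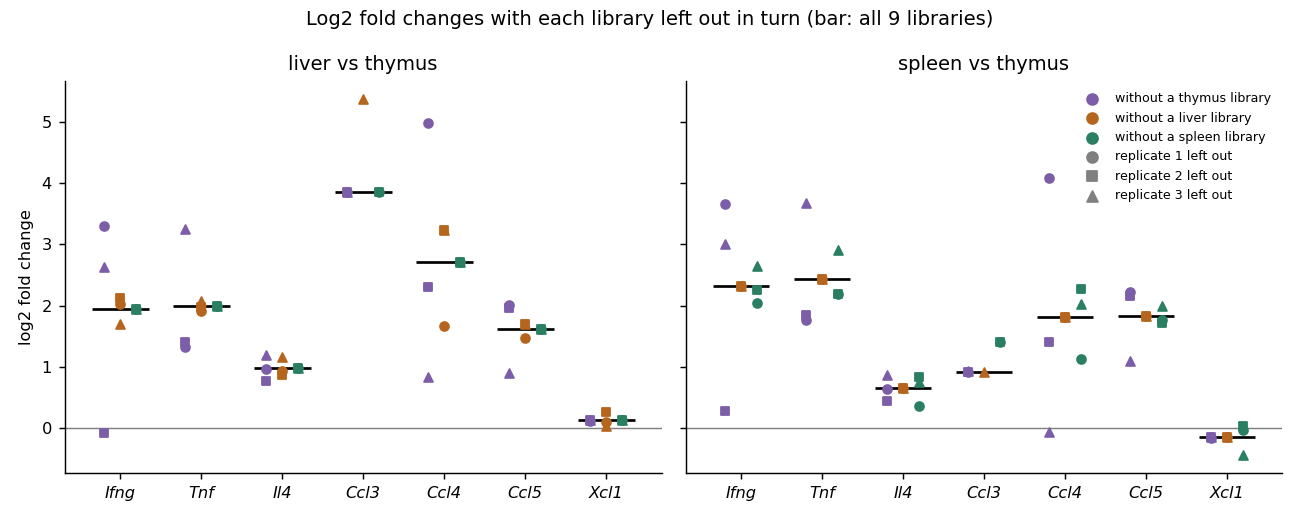
Log2 fold change of each transcript in liver vs thymus (left) and spleen vs thymus (right) with each library left out in turn; colour gives the tissue of the omitted library, symbol its replicate number, and the bar the value from all 9 libraries. Ifng drops to -0.08 and 0.29 without thymus replicate 2, Ccl4 to 0.84 and -0.06 without thymus replicate 3, and Ccl5 stays between 0.90 and 2.21; Ccl3 lacks points where too few libraries passed the filter.

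Levels were compared between the genes after division by exon length (union of GENCODE M21 exons). Per kilobase, Xcl1 and Ccl5 stood at the 99.5th and 99.4th percentile of 12727 genes over the 9 libraries, Ifng at the 96.0th, Il4 at the 88.3rd, Tnf at the 77.7th, Ccl4 at the 60.3rd and Ccl3 at the 39.0th. Thus the chemokines held both the highest and the lowest ranks of the list. In thymus Xcl1 was the leading transcript, at 6724 ± 82.3 per kilobase against 2698 ± 1642 for Ccl5. In liver the Xcl1 mean was also the higher, at 7460 ± 1165 against 6874 ± 1331 for Ccl5. In spleen the means were 6379 ± 2436 for Xcl1 and 7920 ± 1524 for Ccl5. The ratio of Ccl5 to Xcl1 per kilobase, which no scaling of libraries can alter, was 0.571, 0.517 and 0.119 in thymus, 1.09, 0.995 and 0.717 in liver, and 1.65, 1.89 and 0.674 in spleen. All 6 liver and spleen ratios exceeded the 3 thymus ratios, and liver and spleen overlapped; this ratio was chosen after its values were seen and carries no test.

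**Figure D4:**
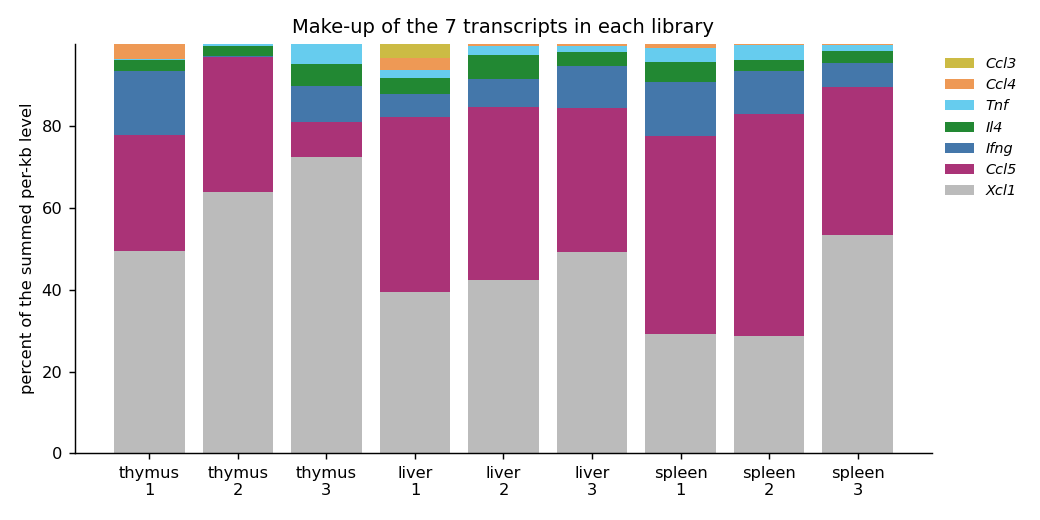
Share of each of the 7 transcripts in their summed level per kilobase, in percent, for each library. Xcl1 makes up 49.6% to 72.3% in thymus, 39.4% to 49.2% in liver and 28.8% to 53.5% in spleen. Ccl5 makes up 35.3% to 54.2% in liver and spleen against 8.63% to 33% in thymus.

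Receptor genes were read next, since iNKT cells can respond to what they release; only some of the listed genes are given, with no count over the list. Il2rg, which encodes the common gamma chain shared by the interleukin 4 receptor, was the most abundant, at 11753, 7814 and 10915 in thymus, 15015, 11233 and 12719 in liver, and 15165, 18201 and 21273 in spleen. All spleen libraries lay above all thymus libraries, and the spleen vs thymus value of 0.85 on the log2 scale (interval 0.35 to 1.35) was not called by limma-trend (adjusted p = 0.166). Ifngr1, a chain of the interferon gamma receptor, read 4363, 7962 and 10129 in thymus, 13973, 8621 and 7051 in liver, and 4878, 3145 and 7038 in spleen. Liver lay just above spleen without overlap, and that difference of 0.99 (interval 0.19 to 1.79) was not called either (limma-trend adjusted p = 0.9999). Xcr1, the Xcl1 receptor gene, named after its values were seen, had no read in thymus replicate 1, read 153 and 179 in the other thymus libraries, and 69.3 to 506 in liver and spleen.

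Transcription factors that act on these genes gave 1 call against thymus. Of 17 listed, 16 were tested, 1 was called higher in each thymus comparison and 0 lower, beside 0.323% and 0.398% of all genes called in either direction. The list's medians were -0.10 and 0.11, under the all-gene medians of 0.29 and 0.33. The gene called was Irf4, a factor induced by antigen receptor signals. It read 0, 1.19 and 127 in thymus, 2578, 887 and 1784 in liver, and 3137, 1643 and 1177 in spleen, a gap that no library crossed. Irf4 rose by 7.93 on the log2 scale in liver (limma-trend adjusted p = 0.0261) and by 8.12 in spleen (adjusted p = 0.0195). On recovered reads edgeR did not call it (adjusted p = 0.237 and 0.207), and the call held in 2 and 4 of 9 fits with a library left out and in neither comparison without liver replicate 1 and spleen replicate 1, the libraries with the most B cell and myeloid signal. There the log2 fold changes were 7.58 and 7.72 (adjusted p = 0.394 and 0.294), and calls over all genes fell from 43 to 2 and from 53 to 13. Tbx21, which also drives the Cre, was not called: it read 1386, 5762 and 1868 in thymus, 2353, 3513 and 2321 in liver, and 3600, 2733 and 3560 in spleen.

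Immediate early genes, which report recent signalling, gave 1 call in each thymus comparison among 14 tested of 16 listed, beside 0.323% and 0.398% of all genes. The list medians were 0.57 and 0.36, beside 0.29 and 0.33 over all genes. Nr4a3, a nuclear receptor gene induced by antigen receptor signals, read 88.6, 32.4 and 15.1 in thymus, 833, 913 and 897 in liver, and 6347, 1765 and 1717 in spleen. All 6 liver and spleen libraries lay above all thymus libraries, and spleen lay above liver. It rose by 4.60 in liver (SE 0.84, limma-trend adjusted p = 0.0267) and by 6.20 in spleen (adjusted p = 0.00334), on the log2 scale; 3 and 8 of 9 fits with a library left out kept the call. Without liver replicate 1 and spleen replicate 1 the values were 4.64 and 5.58, and were not called (adjusted p = 0.301 and 0.150). The liver vs spleen difference of -1.60 was not called (limma-trend adjusted p = 0.9999). Nr4a1, named after its values were seen, had a spleen vs thymus value of 7.88 with adjusted p = 0.0507. In liver vs thymus, 3 of the 14 immediate early genes tested lay wholly above thymus and 3 wholly below it. Over all genes, 15.3% had no overlap in liver vs thymus, 9.61% being higher in liver. The lower immediate early genes, named after their values were seen, were Dusp2 (-1.99, limma-trend adjusted p = 0.214), Egr2 (-1.26, adjusted p = 0.514) and Myc (-0.68, adjusted p = 0.638), none of them called.

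**Figure D5:**
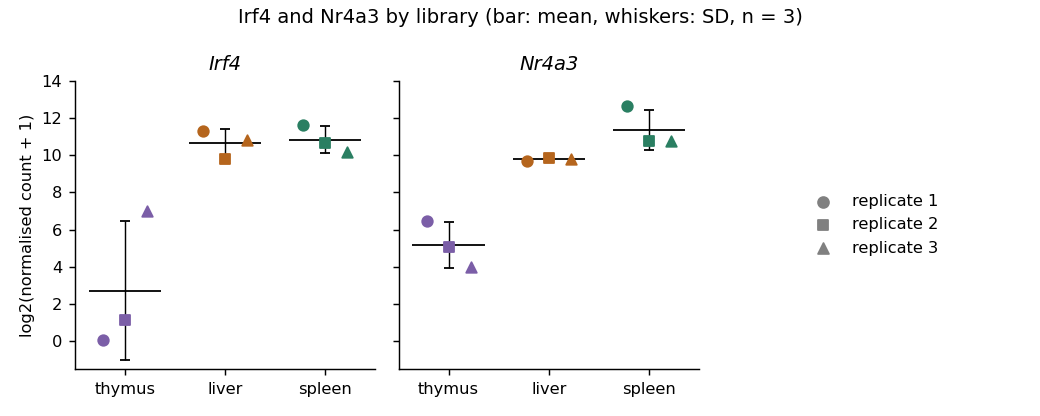
Levels of Irf4 and Nr4a3, the listed transcription factor and immediate early genes called in both thymus comparisons, as log2(normalised count + 1); symbols are replicates, bars means and whiskers SD over 3 libraries. In each panel all liver and spleen libraries lie above all thymus libraries.

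Other cytokine and chemokine genes gave no call: of 32 listed, 18 were in the table and tested, and 0 passed in any comparison (limma-trend). Over all genes, 0.323% were called in liver vs thymus, 0.398% in spleen vs thymus and 0.015% in liver vs spleen. Unadjusted, p was under 0.05 for 6, 6 and 2 of the 18, beside 11.6%, 11.7% and 3.03% of all genes. Their median log2 fold changes were 1.09, 1.60 and -0.07, beside 0.29, 0.33 and -0.02 over all genes. The most abundant were Tnfsf10 (TRAIL), at 5370, 4821 and 2321 in thymus, 10296, 6372 and 5747 in liver, and 4535, 4442 and 4191 in spleen, and Fasl, the Fas ligand gene, at 3249 to 5985 over all libraries. Cxcl10, named after its values were seen, is an interferon-induced chemokine: it read 1.14 to 5.06 in thymus, 99.1, 1006 and 838 in liver, and 146, 122 and 306 in spleen, with adjusted p = 0.0725 and 0.153. Il5, Il10, Il17a and 11 other listed genes were not analysed here.

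Genes that shorten or protect the life of cytokine mRNA gave 0 calls among 7 tested by limma-trend. Over all genes, 0.323% were called in liver vs thymus, 0.398% in spleen vs thymus and 0.015% in liver vs spleen. Unadjusted, p was under 0.05 for 2, 0 and 1 of the 7, beside 11.6%, 11.7% and 3.03% of all genes. The list medians were -0.47, -0.07 and -0.50, beside 0.29, 0.33 and -0.02 over all genes. Rc3h1 (Roquin-1), a repressor of cytokine mRNA, read 14004, 3607 and 8361 in thymus, 7306, 6841 and 4083 in liver, and 3615, 6898 and 6944 in spleen. Zfp36l1, which binds AU-rich elements, read 5656, 3981 and 3389 in thymus, 1778, 2667 and 2205 in liver, and 5830, 4587 and 2445 in spleen, with no liver library reaching the thymus values. Its liver vs thymus value of -0.96 was not called (adjusted p = 0.356).

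The genes whose levels followed each transcript most closely, among well-expressed genes (mean of at least 100) over the 9 libraries, are given as a description; the points share library and scaling. Pearson's r of log2 values was 0.992 for Ifng with Coq10a and 0.991 with Ubox5, both of which also had their lowest value in thymus replicate 2. For Tnf it was 0.982 with Acat2 and 0.980 with Sipa1l3, and for Il4 0.941 with Grhpr and 0.929 with Sugt1. For Ccl5 it was 0.966 with Tdp1 and 0.953 with Rest, for Ccl4 0.932 with Hddc2 and 0.915 with Guf1, and for Ccl3 0.937 with Traf3ip2 and 0.932 with Guk1. Ccl3 had a read in 3 libraries and stood high in liver replicate 1 alone, where Traf3ip2 and Guk1 were also highest. Xcl1 had the weakest values, 0.881 with Cdr2 and 0.872 with Prdm9. The genes named were picked as the highest among 8893 candidates (8894 for Ccl3), so a high r carries no test.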

How the data were processed

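RNA from iNKT1 cells was sequenced in 9 libraries, 3 per tissue (76 cycles, ultralow-input kit, per the labels' protocols). The submitters' processing notes name Trimmomatic 0.33, TopHat2 2.1.0, HTSeq 0.6.1, edgeR and mm10; the annotation and the scaling are not given in the sources used here. The authors' deposited values are normalised read counts, treated as a signal: low values lie on steps of equal size per library, and rounding value over step gave reads (93.5% of 15737 values of 1 to 20 reads lay within 0.1 of a whole number; 72.9% in liver replicate 3). Genes without a read can carry a small deposited value. Tissue and replicate number in each column's name matched the labels; the thymus replicate 2 column has an extra letter that the labels do not explain.

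limma 3.58.1 (limma-trend, R 4.3.3) was fitted to log2(value + 1) for the 13309 genes that reached a value of 1 in 3 or more libraries, all 9 libraries in 1 fit with a tissue term; tests are two-sided with Benjamini-Hochberg adjustment over all genes and a threshold of 0.05. Fold changes on this scale understate low genes. Alternatives included edgeR 4.0.16 and DESeq2 1.42.0 on recovered reads. The procedure was tested on simulated data with larger changes than those of Ccl5 and the same dispersion for every gene. That test does not show how readily the members could be called here. Depth and floors cover counting error only. Coordinates and lengths come from GENCODE M21 (GRCm38).

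Members and lists were chosen with earlier results of these data known. Genes named are all members, listed genes past the threshold or otherwise the most abundant of a list, RefSeq protein-coding neighbours (those in the table), and the 2 genes most like each member; exceptions are marked. Iltifb, Ccl6, Wfdc17, Ccl9, Dpt and Tbx19 are neighbours not analysed here. Erythroid genes summed to 2.42 to 575 and immature thymocyte genes to at most 1157 per library (Rag1 486 in thymus replicate 3); the natural killer cell list summed to 4119 to 4721 in thymus, 1443 to 2882 in liver and 495 to 839 in spleen. A listed receptor gene, and counts over its list, are not reported here.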

Additional observations from a re-analysis of the deposited data

How the results depend on the processing

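A member's log2 fold change had 442 alternative values over 22 settings. Of these, 431 kept their direction without becoming calls, 2 kept it and became calls, and 9 changed sign. Some settings could not move a limma-trend value. The filter, the replicate block and the omission of a library of the tissue not compared left it as it was. The 431 is therefore not a count of separate checks. Of the 431, 423 also kept their side of the threshold, and 8 had no adjusted p from DESeq2 (Tnf, Ccl3 and Ccl4). The 2 were Ccl5 with limma array weights, 1.97 in liver vs thymus and 2.23 in spleen vs thymus, so that the members called went from 0 to 1 in each and in the F-test of any tissue. Over all 13309 genes these weights called 50, 52 and 74 in the same tests, against 43, 53 and 46. In liver vs spleen they called 18 genes, against 2, with 0 members among them. The sign changes against thymus were Ifng in liver without thymus replicate 2 (-0.0768), Xcl1 in liver with TMM factors (-0.15), Ccl4 in spleen with edgeR (-0.85), with DESeq2 (-0.89) and without thymus replicate 3 (-0.0568), and Xcl1 in spleen with equal library totals (0.0270), with the libraries numbered 1 and 3 only (0.0375) and without spleen replicate 2 (0.0337). In liver vs spleen it was Ccl4 without liver replicate 1 (-0.15). The cause was not tested. With each library left out in turn these ran from -0.0768 to 3.29 (Ifng, liver vs thymus), from -0.0568 to 4.08 (Ccl4, spleen vs thymus), from -0.435 to 0.0337 (Xcl1, spleen vs thymus) and from -0.146 to 1.59 (Ccl4, liver vs spleen). No adjusted p of these values passed the threshold; DESeq2 gave none for Ccl4.

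With each library left out, 0 members were called in every comparison, and the adjusted p of Ccl5 ran from 0.0967 to 0.466 in liver vs thymus and from 0.0568 to 0.373 in spleen vs thymus. Without liver replicate 1 and spleen replicate 1 together, chosen after seeing the data, its log2 fold changes were 1.47 and 1.76 (adjusted p = 0.514 and 0.414). The replicate block called 0 members in each comparison and 42, 55 and 4 of all genes, against 43, 53 and 2. With the block the limma-trend adjusted p of Ccl5 was 0.135 in liver vs thymus and 0.073 in spleen vs thymus, against 0.200 and 0.140. After removal of tissue means, correlations of same-numbered libraries ran from -0.0007 to 0.0891. Those of differently numbered libraries ran from -0.087 to 0.048. The ranges overlapped and the labels state no pairing, so the numbers were not taken as pairs in the main fit. Y-linked reads did follow the number, at 6 to 21 in the libraries numbered 2 and at least 1458 in the others. Shared origin of same-numbered libraries is therefore not excluded. Genes called overall ranged from 2 to 455, from 9 to 512 and from 0 to 22 in liver vs thymus, spleen vs thymus and liver vs spleen, and from 11 to 363 in the F-test. DESeq2 gave the highest counts; edgeR gave 22, 37 and 2. With library 3 of thymus left out the thymus comparisons gave 151 and 140. In spleen vs thymus the split was 25 higher and 28 lower, and 27 and 65 with TMM factors; in liver vs thymus it was 27 and 16, and 19 and 25 with TMM factors. Ccl3 could not be fitted where the filter removed it. Liver replicate 3, with the fewest reads, limits low transcripts most.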
